A study of Mus musculus with 20 samples.

Results

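Hippocampal gene expression was compared by RNA sequencing between 5 adult mice labelled Adnp-HT and 5 adult WT mice, all males of 4 months on the C57BL/6J background. The mice labelled Adnp-HT carried 1 copy of *Adnp* from which exon 5 had been removed, starting from a KOMP knockout-first line (tm1a) that was crossed to Flp and then Cre drivers under the Protamine promoter, so every cell of the animal carries the deletion. Mice without any intact copy die before birth, so the model holds heterozygotes only. The 10 adult columns were picked by the age and genotype on their labels from a table of 20 samples in 4 groups, and each column is labelled as a replicate of its own, taken here as 1 mouse. The column names of Adnp-HT replicates 1 and 5 end in the same code, whose meaning the labels do not state. A gene was tested where its values averaged 10 or more across the 10 adult mice, which left 17606 of 19258 genes. The other 10 columns, from juvenile mice of 3 weeks with the same genotypes, entered only where the difference between ages is tested. Values are the authors' normalized counts, the read count of a gene divided by a size factor of the library, and their sums per adult mouse lay between 31892978 and 32683331. The sequencing depth behind them is unknown, so no counting error is given.

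ADNP is a nuclear protein with zinc fingers and a homeodomain that binds DNA. It forms the ChAHP complex with the remodelling enzyme CHD4 and heterochromatin protein HP1, which keeps genes and repeats closed and can take the place of the insulator protein CTCF at shared sites, and it also binds subunits of the SWI/SNF remodelling complex. In the hippocampus it is made by neurons and glia, and mutation of 1 copy in people causes a neurodevelopmental syndrome.

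The targeted gene was looked at first. *Adnp* had normalized counts of 2476, 2661, 2309.5, 2705 and 2705 in the 5 libraries labelled Adnp-HT and 2007, 2219, 2136, 1984 and 2423 in the 5 WT libraries, that is 2571 ± 174 (SD, n = 5) against 2154 ± 179 (SD, n = 5) in WT. The groups overlapped, since WT replicate 5 at 2423 stood above Adnp-HT replicate 3 at 2309.5, but the mean was 119% of WT (two-sided exact permutation test, p = 0.0159). A limma fit over all genes tested gave it a log2 fold change of 0.26 with a standard error of 0.061, short of the threshold of 0.05 after adjustment (adjusted p = 0.0913). A lower value would be the direction of a lost copy, and the RNA level of *Adnp* ran the other way, so the animals are called libraries labelled Adnp-HT from here on. Genotyping and protein measurements of the study were not used here. The deposited value covers the whole gene, so reads of exon 5 alone were not analysed here.

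A gene that overlaps *Adnp* on chromosome 2 (GRCm38) and the next gene along changed, in opposite directions. *Adnp* lies from 168180986 to 168207112, *Dpm1*, a subunit of the enzyme that makes dolichol phosphate mannose, from 168209048 to 168230591, and *Gm20716*, annotated as protein coding, overlaps both, from 168180986 to 168230364. *Gm20716* stood at 1605, 1436, 1776, 1601 and 1583 against 2424, 2449.9, 2704, 2714 and 2266 in WT (log2 fold change −0.65, standard error 0.062, adjusted p = 0.000380). Every library labelled Adnp-HT was below every WT library, and the call was kept in all 10 fits that leave out 1 mouse. *Dpm1* stood at 937, 1231, 813, 1053 and 858 against 575, 726, 499, 450.4 and 731 in WT (log2 fold change 0.72, standard error 0.15, adjusted p = 0.0481), again with no overlap, this time upwards. Only 1 of the 10 fits without 1 mouse kept that call, with log2 fold changes from 0.63 to 0.80, and after quantile normalization it was 0.74 (adjusted p = 0.0507). The call was also lost without limma's trend, the link between the mean of a gene and its variance (adjusted p = 0.148). Added together, *Adnp* and *Gm20716* gave 4081, 4097, 4086, 4306 and 4288 in the libraries labelled Adnp-HT and 4432, 4669, 4839.9, 4698 and 4689 in WT, or 89.4% of WT. These sums were lower and did not overlap between groups (exact two-sided permutation test, p = 0.00794, the smallest that 5 mice against 5 can give). They contain the decrease of *Gm20716* given above, so they are no separate test of the locus. With *Dpm1* added as a further term the sum was 97.9% of WT and the groups overlapped (exact permutation test, p = 0.341). How reads were shared between *Gm20716* and the 2 genes it overlaps was not tested. The paralog *Adnp2* had counts from 909 to 1045 against 954 to 1037 in WT and was not called (log2 fold change −0.050, standard error 0.048, adjusted p = 0.748).

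**Figure D1:**
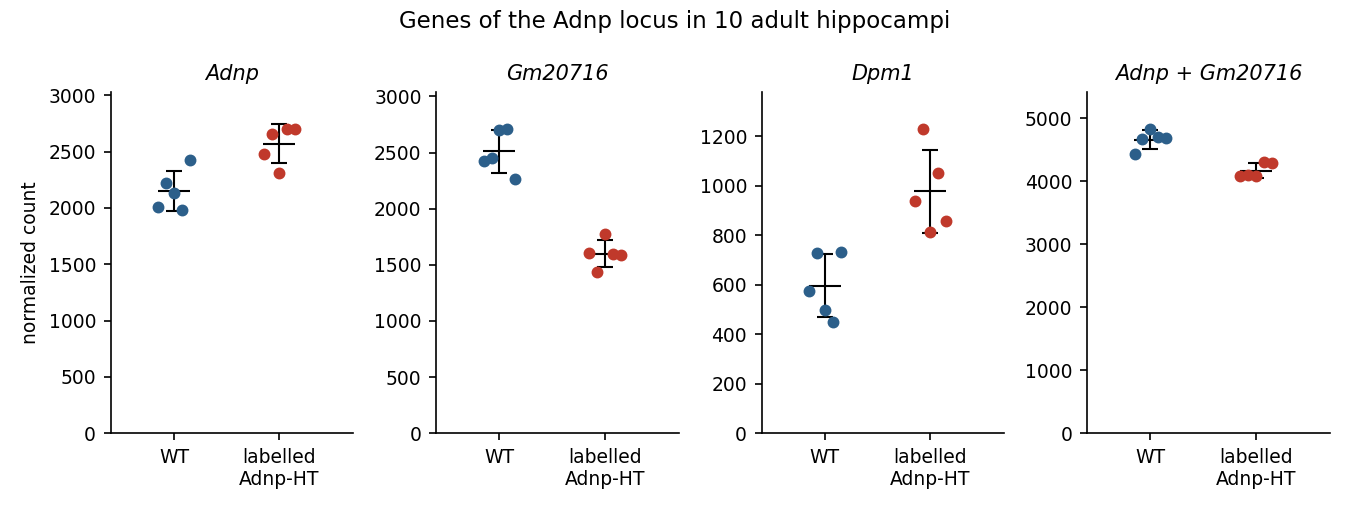
Normalized counts of *Adnp*, *Gm20716*, *Dpm1* and the sum of *Adnp* and *Gm20716* in each of 10 adult mice (points), with the mean and SD of each group of 5 in black. *Adnp* was 119% of WT with overlapping groups, while *Gm20716* at 63.7%, *Dpm1* at 164% and the sum at 89.4% did not overlap.

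The genes for the partners of ADNP had calls and small p-values at about the share of all genes. Of 39 genes of the ChAHP complex, of SWI/SNF and of related chromatin factors, with *Adnp* itself counted among them, 0 were called in either direction by limma and 5 had an unadjusted p under 0.05, beside 0.636% and 11.4% of all genes. Their median log2 fold change was 0.0014 beside −0.0045 over all genes tested. *Chd4*, the remodelling enzyme of ChAHP, stood at 7782, 7953, 7702, 7534 and 7955 against 6586, 6503, 7227, 7337 and 6960.1 in WT. Its groups did not overlap, yet the difference missed the threshold (log2 fold change 0.17, standard error 0.037, adjusted p = 0.0668). The HP1 genes *Cbx1*, *Cbx3* and *Cbx5* had log2 fold changes of −0.0061, 0.00030 and 0.020, and *Ctcf* had −0.0030. Among the SWI/SNF subunits the values ran from −0.11 for *Phf10* to 0.18 for *Smarcd2*. These genes, other than *Chd4*, were chosen after their values were seen.

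Across all genes few differences passed the test, and most of those were increases. A gene is called here where its limma p, adjusted over all genes tested by the Benjamini-Hochberg method, is under 0.05. By this rule 112 of 17606 genes (0.636%) were called, 93 of them higher in the libraries labelled Adnp-HT (0.528% of genes tested) and 19 lower (0.108%), so 83.0% of the calls were increases. Without adjustment 2007 genes (11.4%) had a p under 0.05, and 48.0% of all genes tested had a log2 fold change above 0. Among the called genes 108 had groups that did not overlap, beside 538 (3.06%) of all genes tested, of which 394 were higher and 144 lower. The median log2 fold change was 0.38 for the called increases and −0.44 for the called decreases. Only 15 called genes reached a log2 fold change of 1 and 3 reached −1, while 42 of the called increases were under 0.3. In the 10 fits that leave out 1 mouse each, 35 of the 112 genes were called every time. The count in those fits was 60 without Adnp-HT replicate 1, 47 without replicate 3, 60 without replicate 4 and 44 without replicate 5, 60, 41 and 48 without WT replicates 1, 4 and 5, and from 76 to 135 without any other mouse.

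How large a difference had to be for a call depended on level, since the median standard error was 0.24 in the lowest class of means and 0.034 in the highest. Among 4640 genes with a mean from 10 to 100, 14 were called higher with a median log2 fold change of 1.33, and among 6613 genes from 100 to 1000, 32 were, with a median of 0.70. From 1000 to 10000 the 37 called increases had a median of 0.23, and above 10000 the 10 had 0.17. The share of genes called was 0.409% in the lowest class and 2.11% in the highest. The called increases above 10000 were slight, with log2 fold changes from 0.14 to 0.28.

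**Figure D2:**
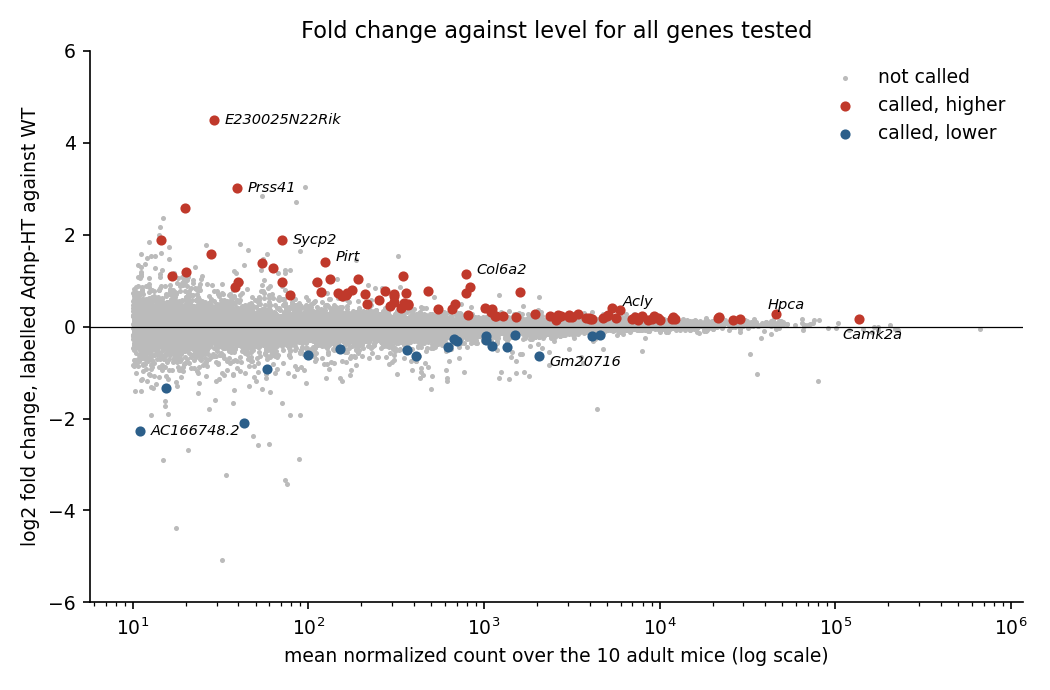
Log2 fold change of each of 17606 genes in the libraries labelled Adnp-HT against WT, plotted against the mean normalized count over the 10 adult mice on a log scale. Red points are the 93 genes called higher and blue points the 19 called lower at an adjusted p under 0.05, and grey points were not called; the largest called changes sit at low levels, where standard errors are largest, and the called genes at high levels lie near 0.

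Germline genes, which are normally read only in testis or ovary, held 3 of the 4 largest increases. The list had 48 symbols, 29 were in the table and 22 passed the filter on low values, a filter that a gene read in 1 group alone passes through that group. Of those 22, 4 were called higher and 0 lower, beside 0.528% and 0.108% of all genes tested. *Prss41* and *Prss50*, with WT means under 10, passed the filter through the libraries labelled Adnp-HT alone, so 2 of the 4 calls were let in by the difference itself. *Prss41*, a serine protease of the testis, stood at 93.7, 82.8, 67.5, 58.7 and 48.4 in the 5 libraries labelled Adnp-HT and 13.6, 3.13, 11.3, 8.41 and 5.56 in the 5 WT libraries, and the means differed 8.36-fold (log2 fold change 3.02, standard error 0.33, adjusted p = 0.000753). The lowest library labelled Adnp-HT, replicate 5, was above the highest WT library, replicate 1. *Prss50*, a testis protease-like protein, stood at 38.7, 43.8, 37.5, 16.8 and 33.4 against 4.68, 7.22, 8.79, 5.36 and 0.951 in WT, a 6.30-fold difference of means (log2 fold change 2.57, standard error 0.42, adjusted p = 0.0165). Here Adnp-HT replicate 4 was the lowest of its group, still above all WT mice. *Sycp2*, which builds the lateral element of the synaptonemal complex, stood at 101, 158, 129.5, 89.5 and 82.9 against 28.4, 26.5, 26.5, 18.9 and 50.04 in WT, 3.73-fold (log2 fold change 1.89, standard error 0.25, adjusted p = 0.00345). *Rec8*, the meiotic subunit of cohesin, stood at 140.2, 188, 199.8, 184 and 170.5 against 92.7, 45.3, 101, 114 and 88.5 in WT, 1.998-fold (log2 fold change 1.04, standard error 0.21, adjusted p = 0.0481). The calls of *Prss41* and *Sycp2* held in all 10 fits without 1 mouse, that of *Prss50* in 8 and that of *Rec8* in 2. Without limma's trend *Prss50* and *Rec8* were not called.

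Most germline genes were not called. The other 18 members were not called, and the median of the 22 was 0.033 (beside −0.0045 over all genes), and 12 were above 0 and 10 below. The synaptonemal complex partner *Sycp3* stood at 12.0, 27.0, 8.00, 24.9 and 19.11 in the libraries labelled Adnp-HT against 14.7, 38.8, 13.9, 7.43 and 14.7 in WT (log2 fold change 0.096, adjusted p = 0.963). *Dazl* and *Ddx4*, the RNA-binding proteins that mark germ cells, had log2 fold changes of −0.027 and −0.036. Of the genes that guard germ cells against transposons, *Rnf17* was the nearest to a call, with counts of 39.3, 103, 125, 67.1 and 71.0 in the libraries labelled Adnp-HT against 39.4, 21.8, 47.2, 24.3 and 13.5 in WT (log2 fold change 1.46, adjusted p = 0.0953), and *Tdrd1* the next (log2 fold change 0.73, adjusted p = 0.101). On the other side *Mei4*, needed for meiotic DNA breaks, had log2 fold change −0.70, adjusted p = 0.149, with groups that did not overlap. These uncalled members were chosen after their values were seen.

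The promoters of the 4 called germline genes are shown because all 4 genes rose, and that of *Abhd11os*, a noncoding RNA read from the strand opposite *Abhd11*, because it is the other gene among the 10 largest increases whose window holds CGCCCNCT. Each window runs 5′ to 3′ on the gene's own strand from 250 bases before its start to 50 after it, from RefSeq on GRCm38.p6. Of the 4 germline genes all 4 had an entry, and of the 10 genes with the largest increase 7 did. The windows were searched on both strands for CGCCCNCT, part of the sequence that ADNP and CTCF both bind, for TCCCGC, the core bound by E2F6, and for CACGTG, the E-box bound by MGA with MAX. E2F6 and MGA are known repressors of germline genes. No match overlaps another in the windows shown, and of 2 entries for *Prss50* the first is given. Capitals mark the matches, and a match is read from either strand.
Prss41 (chr17:23844107-23844406, minus strand): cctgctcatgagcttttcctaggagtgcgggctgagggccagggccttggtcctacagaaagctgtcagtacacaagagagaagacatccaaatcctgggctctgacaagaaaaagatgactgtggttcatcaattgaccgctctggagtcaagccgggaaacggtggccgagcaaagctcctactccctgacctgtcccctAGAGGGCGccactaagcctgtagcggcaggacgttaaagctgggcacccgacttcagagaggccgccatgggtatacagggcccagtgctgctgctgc
Prss50 (chr9:110857714-110858013, plus strand): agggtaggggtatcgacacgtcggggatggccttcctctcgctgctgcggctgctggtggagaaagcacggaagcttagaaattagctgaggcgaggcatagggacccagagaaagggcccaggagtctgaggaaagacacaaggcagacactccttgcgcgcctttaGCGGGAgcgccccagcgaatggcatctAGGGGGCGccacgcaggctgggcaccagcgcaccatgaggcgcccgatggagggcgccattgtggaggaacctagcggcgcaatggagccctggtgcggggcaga
Sycp2 (chr2:178407609-178407908, minus strand): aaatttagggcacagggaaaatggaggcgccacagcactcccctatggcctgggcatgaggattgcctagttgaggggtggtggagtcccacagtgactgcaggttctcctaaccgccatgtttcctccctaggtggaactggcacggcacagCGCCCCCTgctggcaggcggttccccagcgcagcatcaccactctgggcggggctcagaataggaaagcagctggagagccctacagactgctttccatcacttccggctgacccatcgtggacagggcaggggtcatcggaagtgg
Rec8 (chr14:55617916-55618215, plus strand): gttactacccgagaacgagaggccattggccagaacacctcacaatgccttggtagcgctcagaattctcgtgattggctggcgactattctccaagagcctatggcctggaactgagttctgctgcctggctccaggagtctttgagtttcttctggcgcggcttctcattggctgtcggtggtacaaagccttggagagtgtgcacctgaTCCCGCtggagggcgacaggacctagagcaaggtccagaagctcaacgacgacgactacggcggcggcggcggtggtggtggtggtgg
Abhd11os (chr5:135013108-135013407, minus strand): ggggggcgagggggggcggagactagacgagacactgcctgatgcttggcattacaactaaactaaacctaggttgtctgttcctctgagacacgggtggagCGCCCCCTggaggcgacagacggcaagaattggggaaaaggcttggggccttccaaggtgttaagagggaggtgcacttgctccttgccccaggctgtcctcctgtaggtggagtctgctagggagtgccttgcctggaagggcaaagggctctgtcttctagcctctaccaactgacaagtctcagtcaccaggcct
CGCCCNCT was read as AGAGGGCG at bases 203 to 210 of the *Prss41* window, as AGGGGGCG at 196 to 203 in *Prss50*, and as CGCCCCCT in *Sycp2* at 154 to 161 and *Abhd11os* at 103 to 110. TCCCGC was found in *Rec8* at 213 to 218 and, on the other strand, in *Prss50* at 169 to 174, and CACGTG in none of the 5. Over all 32851 promoter windows the shares were 12.2% for CGCCCNCT, 19.98% for TCCCGC and 7.15% for CACGTG. Among genes tested here that had a window, 24.4%, 37.5% and 11.1% held them, and among the 61 genes called higher that had one, 24.6%, 42.6% and 16.4%. Of the 14 germline genes with a window that were tested and not called, 4 held CGCCCNCT, 8 TCCCGC and 7 CACGTG. The letters alone say nothing of whether a factor sits there.

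Outside the germline list, the largest increases came from genes with varied roles and mostly low counts. *E230025N22Rik*, a predicted protein-coding gene on chromosome 18, stood at 44.2, 68.4, 57.3, 56.5 and 53.2 in the 5 libraries labelled Adnp-HT and 0.872, 4.59, 0, 0.841 and 3.92 in the 5 WT libraries. All WT mice were under 5 counts, and the means differed 27.3-fold (log2 fold change 4.50, standard error 0.43, adjusted p = 0.000380). With WT values this near 0 the size of the log2 fold change depends on the pseudocount of 1, while the call does not. With a WT mean of 2.05, the gene passed the filter on low values only through the libraries labelled Adnp-HT. *Krt79*, a type II keratin of epithelia, stood at 30.9, 24.0, 16.6, 18.3 and 24.9 against 3.23, 11.8, 3.09, 6.97 and 4.86 in WT (log2 fold change 1.88, standard error 0.34, adjusted p = 0.0299), a call kept in 2 of the 10 fits without 1 mouse. *Abhd11os* stood at 38.2, 40.1, 51.0, 44.9 and 33.5 against 23.2, 6.70, 12.7, 16.2 and 11.7 in WT (log2 fold change 1.58, standard error 0.28, adjusted p = 0.0259), kept in 3. *Tnfrsf8*, the receptor CD30 of activated lymphocytes, stood at 82.1, 67.2, 83.7, 83.2 and 79.0 against 24.3, 32.8, 32.2, 29.7 and 30.6 in WT (log2 fold change 1.37, standard error 0.14, adjusted p = 0.000404), kept in all 10. In each of these genes no library labelled Adnp-HT reached down to a WT value. *Sult5a1*, a sulfotransferase, ran from 72.4 to 116 against 27.7 to 48.3 in WT (log2 fold change 1.28, standard error 0.19, adjusted p = 0.0104), with no overlap. Its call was kept in all 10 fits without 1 mouse. The calls of *Krt79* and *Abhd11os* were lost without limma's trend.

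Several of the genes with the smallest p had a narrow spread within each group. *AC171111.1*, a long intergenic noncoding RNA on chromosome 17, stood at 469, 489, 480.4, 504 and 428 against 242, 243, 212, 213 and 195 in WT (log2 fold change 1.1, standard error 0.078, adjusted p = 6.32e-05). *Stpg1*, a gene of the sperm tail, stood at 235, 262, 271, 252 and 272 against 129.6, 134, 115, 119.9 and 126 in WT (log2 fold change 1.04, standard error 0.080, adjusted p = 6.32e-05). Both were about 2 times the WT level with narrow spread, the libraries labelled Adnp-HT being 2.14 and 2.07 times WT. *Card10*, a scaffold of NF-kB signalling, stood at 587, 609.9, 611, 607 and 603 against 312, 312, 358, 396 and 390.4 in WT (log2 fold change 0.78, standard error 0.075, adjusted p = 0.000380), and its SD among the libraries labelled Adnp-HT was only 9.75. *Acly*, ATP citrate lyase, which supplies acetyl-CoA outside mitochondria for lipids and histone acetylation, stood at 6194, 6357, 6244, 5846 and 5759.8 against 4909, 4315, 4534, 4604 and 4565 in WT, or 133% of WT (log2 fold change 0.41, standard error 0.040, adjusted p = 0.000381). The glycolytic genes *Pfkl* and *Pgam2*, chosen after their values were seen, were also called, with counts from 8129 to 8959.9 against 7036 to 7684 in WT (log2 fold change 0.23, standard error 0.034, adjusted p = 0.0117) and from 207 to 257 against 110.5 to 151 in WT (log2 fold change 0.80, standard error 0.10, adjusted p = 0.00345). The calls of these 6 genes held in all 10 fits without 1 mouse.

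Decreases were fewer, and they came from genes with varied roles. *AC166748.2*, a long intergenic noncoding RNA, stood at 6.13, 2.83, 2.76, 0.948 and 4.39 against 20.4, 16.4, 16.4, 23.8 and 16.04 in WT, or 18.3% of WT (log2 fold change −2.26, standard error 0.35, adjusted p = 0.0117). *Capn12*, a calpain protease, stood at 7.83, 7.32, 7.31, 12.0 and 7.03 against 30.8, 22.1, 23.9, 18.3 and 17.2 in WT (log2 fold change −1.33, standard error 0.24, adjusted p = 0.0301). Its call was kept in 1 of the 10 fits without 1 mouse, and that of *AC166748.2* in 8 of 8 in which it passed the filter. Both genes, with means of 8.29 and 3.41 in the libraries labelled Adnp-HT, passed that filter only through the WT libraries. *Tmem255b*, a transmembrane protein of unknown role, ran from 30.4 to 51.6 against 63.1 to 88.4 in WT (log2 fold change −0.92, standard error 0.17, adjusted p = 0.0367), and *Fyb2*, an adaptor of T cell signalling, from 66.5 to 86.3 against 112 to 136 in WT (log2 fold change −0.61, standard error 0.11, adjusted p = 0.0259), each kept in 2 of those fits, and *Tmem255b* was not called after quantile normalization or without limma's trend. *Fam220a*, outside the rule for named genes because its groups overlapped and chosen after its values were seen, stood at 6.67, 48.5, 10.3, 11.9 and 15.0 against 91.2, 65.2, 89.4, 41.8 and 51.8 in WT (log2 fold change −2.09, standard error 0.42, adjusted p = 0.0481). Adnp-HT replicate 2 was above 1 WT mouse for this gene while the other 4 of its group were below all WT mice, and the call was kept in 1 of the 10 fits.

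**Figure D3:**
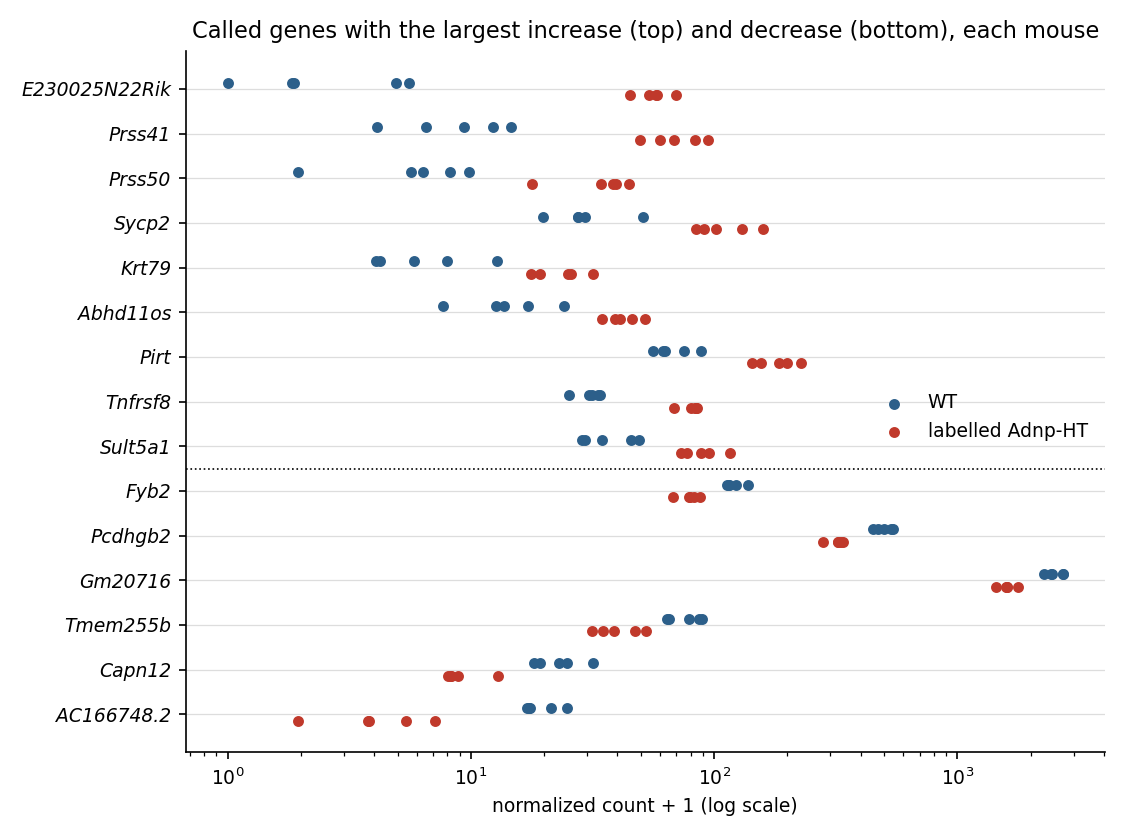
Normalized count plus 1 (log scale) of each adult mouse for the 9 called genes with the largest increase, above the dotted line, and the 6 with the largest decrease, below it, among called genes whose groups do not overlap. Each point is 1 mouse, blue for WT and red for libraries labelled Adnp-HT; *E230025N22Rik* lies from 44.2 to 68.4 against 0 to 4.59 in WT before the 1 is added.

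Clustered protocadherins, the cell-surface adhesion proteins whose alternative first exons give single neurons their identity codes, changed in both directions. Of 57 tested on chromosome 18, 7 were called higher and 2 lower, beside 0.528% and 0.108% of all genes. *Pcdhga11* stood at 1996, 1969, 2165, 1809 and 2095 against 1179.8, 1223, 1112, 1112 and 1294 in WT (log2 fold change 0.76, standard error 0.057, adjusted p = 6.32e-05), and *Pcdhga2* at 1062, 1077, 973, 1017 and 1202 against 631, 666, 534, 520.5 and 582 in WT (log2 fold change 0.86, standard error 0.077, adjusted p = 0.000267). *Pcdhgb2* went the other way, at 321, 279.6, 331, 321 and 337 against 451, 545, 470.2, 496 and 532 in WT (log2 fold change −0.65, standard error 0.073, adjusted p = 0.000994), as did *Pcdhga9*, at 251, 297, 299.9, 347 and 312 against 444, 439, 412, 446 and 391 in WT (log2 fold change −0.51, standard error 0.083, adjusted p = 0.0172). None of these 4 gamma genes overlapped between groups, so the values of neighbours in 1 cluster differed in opposite directions in the same mice. Their annotated spans overlap each other and end at 37841870 or 37841873, and how reads were shared between them was not tested. The other called increase in the gamma cluster was *Pcdhgb6* (0.40), given as a log2 fold change. In the beta cluster they were *Pcdhb12* (0.49), *Pcdhb14* (0.52), *Pcdhb16* (0.48) and *Pcdhb17* (0.38). The call of *Pcdhgb6* was kept in 3 of the 10 fits without 1 mouse, and those of the beta genes in 8, 10, 3 and 2. Without limma's trend *Pcdhgb6* and *Pcdhb16* were not called. *Pcdhb17* is outside the rule for named genes, and its call was not examined there. No alpha gene was called among 14 tested. The median of all 57 was 0.049 (0.077 after quantile normalization), with 32 above 0 and 25 below.

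Summed over its members, each cluster differed less between groups than the genes named above. The 22 gamma genes added up to 22573, 24052, 23629, 24335 and 24080.0 in the libraries labelled Adnp-HT and 22321, 22458, 21904, 22776 and 23134 in WT, 105% of WT (exact permutation test, p = 0.0238). Of these 22, only 9 had a log2 fold change above 0, and their median was −0.055. Groups did not overlap for 4 higher and 5 lower members, beside 394 higher and 144 lower of all 17606 genes tested. The 21 beta genes added up to 5088, 5259.7, 4733, 5138 and 5004 in the libraries labelled Adnp-HT and 4481, 4539, 4052, 4852 and 4466 in WT, 113% of WT (exact permutation test, p = 0.0159), and the 14 alpha genes to 102% (exact permutation test, p = 0.429). All 3 sums overlapped between groups. Within 2 Mb of the span from the first to the last clustered gene lay 2 further called genes, *E230025N22Rik* upstream and *Pcdh1* downstream, the latter chosen for its position after its values were seen (log2 fold change 0.21, standard error 0.032, adjusted p = 0.0126).

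By position, chromosome 18 held 13 called genes of 493 tested (2.64%), the highest share of any chromosome, with 9 of these genes in the protocadherin clusters described above. Chromosome 4 was next with 12 of 1023 (1.17%). Within 5 Mb of *Adnp* on chromosome 2, 3 of 106 genes tested were called (2.83%), and within 10 Mb the same 3 of 187 (1.604%), beside 0.636% of all genes. Apart from *Gm20716* and *Dpm1*, 1 call remained there, *Nfatc2*, a calcium-dependent transcription factor chosen for its position after its values were seen, at 792, 738, 741, 718 and 723 against 588, 497, 654, 611 and 526 in WT (log2 fold change 0.37, standard error 0.072, adjusted p = 0.0387). *Nfatc2* did not overlap between groups, and its call was kept in 1 of the 10 fits without 1 mouse. Runs of 3 called genes with gaps of at most 2 Mb, picked for being called and so not set against the share of all genes, lay on chromosome 4, with *Tnfrsf8*, *Znf41-ps* (0.97) and *Zfp991* (0.75), and on chromosome 12, with *Asb2* (0.69), *Serpina3n* (0.21) and *D430019H16Rik* (0.16), where the values are log2 fold changes of genes named for their position after the values were seen.

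Collagen VI, the beaded filament collagen of the matrix around cells, stood out among the collagens through its chain *Col6a2*. *Col6a2* stood at 1059, 1090.2, 997, 1209 and 1066 against 540.4, 355, 601, 475 and 524 in WT, 2.17 times WT (log2 fold change 1.14, standard error 0.12, adjusted p = 0.000457), and was called in all 10 fits without 1 mouse. It was the only collagen called of 43 tested, beside 0.636% of all genes, and their median was −0.069 with 15 above 0 and 28 below. Its partner chains were looked at after the values were seen. *Col6a1* stood at 2537, 2110.3, 2286, 3011 and 2433 in the libraries labelled Adnp-HT against 1308, 1109, 2295, 1568 and 1779 in WT (log2 fold change 0.65, adjusted p = 0.102), with overlapping groups. *Col6a3* stood at 251, 210.1, 466, 314 and 210.2 in the libraries labelled Adnp-HT against 157, 113, 153, 187 and 136 in WT (log2 fold change 0.91, adjusted p = 0.0742), with no overlap. *Col6a4* stood at 396, 663, 512, 207 and 595 in the libraries labelled Adnp-HT against 289.9, 218, 54.1, 128 and 178 in WT (log2 fold change 1.54, adjusted p = 0.132). In *Col6a4*, Adnp-HT replicate 4 at 207 was below 2 WT mice. Of the 6 chains 5 had a log2 fold change above 0 and 1 below, *Col6a6* (−0.046, adjusted p = 0.976). Summed over the 6 chains the counts were 4357, 4172, 4628, 4947 and 4412 in the libraries labelled Adnp-HT and 2402, 1866, 3211, 2453 and 2701 in WT, or 178% of WT. The sums did not overlap between groups. They contain the increase of *Col6a2* given above, so they are no separate test of collagen VI.

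Keratins, the filament proteins of epithelia, were next. Of 17 tested, 2 were called, *Krt79*, given above, and *Krt9*, at 338, 384, 386, 389 and 404 against 214, 244, 237, 225 and 248 in WT (log2 fold change 0.70, standard error 0.071, adjusted p = 0.000457). Both rose, beside 0.528% of all genes called higher, though *Krt79*, with a WT mean under 10, passed the filter on low values only through the libraries labelled Adnp-HT. Of the 17, 15 had a log2 fold change above 0, beside 48.0% of all genes, and the median was 0.29 (0.33 after quantile normalization). The members below 0 were *Krt8* and *Krt18*, named after their values were seen (−0.94 and −0.82), neither of them called.

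Calcium signalling, which links synaptic activity to plasticity in hippocampal neurons, was taken up next. Of 90 genes tested 8 were called higher and 0 lower, beside 0.528% and 0.108% of all genes, 63 had a log2 fold change above 0 and 27 below, and the median was 0.064 (0.026 after quantile normalization) beside −0.0045 over all genes. The list holds the 8 calcium genes that the study picked from these data, and 5 of the 8 calls are among them, so the count is partly set by that choice. Sensors came first among the abundant genes. *Hpca*, hippocalcin, a sensor that moves to the membrane when calcium rises, stood at 49320.5, 47548, 51000.0, 51341 and 51465 against 41833, 42122, 42672, 39189 and 41263 in WT, or 121% of WT (log2 fold change 0.28, standard error 0.032, adjusted p = 0.00118). *Cabp7*, a calcium-binding protein of the calmodulin family, stood at 10465, 9446, 10134, 10293 and 9880.1 against 8963, 8724, 8557, 8122 and 8455 in WT (log2 fold change 0.23, standard error 0.035, adjusted p = 0.0117). Neither gene overlapped between groups, and both calls held in all 10 fits without 1 mouse, though *Cabp7* was not called without limma's trend.

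Among the kinases, *Camk2a*, the alpha subunit of the kinase that carries long-term potentiation, stood at 140247, 143470, 148724, 145757 and 145528 against 128416, 129578, 129358, 123074 and 130804 in WT, or 113% of WT (log2 fold change 0.17, standard error 0.027, adjusted p = 0.0127), kept in all 10 fits without 1 mouse. *Ptk2b*, a tyrosine kinase switched on by calcium, stood at 29384, 29556, 30952, 29905 and 31992 against 26947, 27218, 27457, 25794 and 27714 in WT (log2 fold change 0.17, standard error 0.031, adjusted p = 0.0345), and *Prkca*, a protein kinase C, ran from 11910.4 to 13025 against 10875 to 11636 in WT (log2 fold change 0.16, standard error 0.031, adjusted p = 0.0367). These 2 calls were kept in 3 and 2 of those fits. After quantile normalization, or without limma's trend, none of *Camk2a*, *Ptk2b* and *Prkca* was called. Of 22 kinases and phosphatases 15 lay above 0, and the lowest was *Camk2d*, named after its value was seen, at −0.56 (adjusted p = 0.111). *Plcg2*, a phospholipase C best known from immune cells, stood at 316, 325, 398, 325 and 359 against 201, 210.4, 213, 177 and 195 in WT (log2 fold change 0.78, standard error 0.084, adjusted p = 0.000677). Its call also held in all 10 fits, while the other 11 phospholipase C genes were not called and the median over all 12 was −0.0076.

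Channels and their regulators came next. *Pirt*, a membrane protein that regulates TRP channels of sensory neurons, stood at 183, 155, 143, 199 and 227 against 87.1, 61.9, 54.9, 60.7 and 74.2 in WT, 2.68 times WT (log2 fold change 1.41, standard error 0.16, adjusted p = 0.000858), kept in all 10 fits without 1 mouse. *Cacna1h*, a T-type calcium channel, stood at 7418, 7365, 8505, 7487 and 7741 against 6593, 6705, 6862, 6364 and 6886 in WT (log2 fold change 0.20, standard error 0.041, adjusted p = 0.0481). Its groups did not overlap, yet the call was lost in all 10 fits without 1 mouse, after quantile normalization and without limma's trend. It was the 1 called gene of 17 voltage-gated channel genes. *Orai2*, a store-operated channel subunit, stood at 7794, 7482, 8597, 8326 and 7883 against 6989.7, 7264, 7289, 6914 and 7096 in WT (log2 fold change 0.17, standard error 0.038, adjusted p = 0.0669). *Ryr1*, a calcium release channel, stood at 2024, 2300.2, 2404, 2084 and 2518 against 1849, 1670.3, 1488, 1991 and 1834 in WT (log2 fold change 0.36, standard error 0.080, adjusted p = 0.0677), and *Grina*, a membrane protein linked to calcium release, ran from 13903 to 14848 against 12782 to 13438 in WT (log2 fold change 0.13, standard error 0.027, adjusted p = 0.0502). For all 3 the groups did not overlap but the adjusted p was above 0.05. None of the 12 pumps and exchangers was called, and their median was 0.065 (0.012 after quantile normalization).

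Synaptic genes had 1 call among 3 lists. Of 63 glutamate receptors, auxiliary subunits and postsynaptic scaffolds, 45 were above 0, 18 below, and the median was 0.055 (0.018 after quantile normalization). Of the same 63, 27 had an unadjusted p under 0.05 and 10 had higher groups that did not overlap, beside 11.4% and 2.24% of all genes, while 1 was called, beside 0.636%. The single call was a decrease, in *Grin3a*, the NMDA receptor subunit that lowers calcium entry and is highest in young neurons, at 932, 894, 871, 1025 and 1019 against 1032, 1317, 1375, 1413 and 1279 in WT (log2 fold change −0.43, standard error 0.081, adjusted p = 0.0367). Groups did not overlap for it, and 1 of the 10 fits without 1 mouse kept the call, which was lost without limma's trend. By role, 25 of 27 scaffolds and signalling proteins were above 0 (median 0.055, 0.018 after quantile normalization) while the 7 metabotropic receptors had a median of −0.086. Of 41 presynaptic proteins 0 were called by limma and 17 had an unadjusted p under 0.05, beside 0.636% and 11.4% of all genes. With 31 above 0 and 10 below, their median was 0.047, or 0.0050 after quantile normalization. The nearest to a call were *Nptx1*, a secreted pentraxin that clusters glutamate receptors, with counts from 23406 to 25092 against 19494 to 22968 in WT (log2 fold change 0.18, standard error 0.041, adjusted p = 0.0826), and *Cplx2*, a complexin of the release machinery, with counts from 48715 to 52142 against 45282 to 49095 in WT (log2 fold change 0.12, standard error 0.030, adjusted p = 0.107). Of 24 genes of inhibitory synapses 0 were called and 2 had an unadjusted p under 0.05, beside the same shares of all genes, 17 were above 0 and 7 below, and the median turned from 0.017 to −0.014 with quantile normalization. Those 2 were *Iqsec3*, a scaffold partner (log2 fold change 0.12, standard error 0.025, adjusted p = 0.0570), and the GABA-B receptor subunit *Gabbr2* (log2 fold change 0.081, standard error 0.025, adjusted p = 0.207).

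Genes of the cytoskeleton gave 5 calls of 42 tested, all higher, beside 0.528% of all genes. Of the 42, 34 were above 0 and 17 had higher groups that did not overlap, beside 48.0% and 2.24% of all genes, and the median was 0.086 (0.055 after quantile normalization). *Acta1*, the actin of skeletal muscle, stood at 158, 192, 212, 197 and 189.6 against 109.6, 132, 112, 111 and 130.1 in WT (log2 fold change 0.67, standard error 0.10, adjusted p = 0.0117) and was called in all 10 fits without 1 mouse. *Inf2*, a formin that builds actin filaments, stood at 5115, 5581, 5848, 5396 and 5508 against 4923, 4787, 4431, 4443 and 4517 in WT (log2 fold change 0.25, standard error 0.042, adjusted p = 0.0209), kept in 6. Smaller increases were called in the adhesion linker *Tln2* (0.20), the actin-binding *Cotl1* (0.25) and the tubulin *Tubb2a* (0.18), given as log2 fold changes, and were kept in 1, 2 and 1 of those fits. The calls of *Tln2* and *Tubb2a* were also lost after quantile normalization, and those of *Inf2*, *Tln2*, *Cotl1* and *Tubb2a* without limma's trend. Actin and its partners had a median of 0.11 over 15 genes, and microtubule-associated proteins 0.037 over 14.

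Lists that follow recent activity, time of day or handling gave no calls by limma, and their counts stand beside 0.636% of all genes called and 11.4% with an unadjusted p under 0.05. Of 31 immediate early genes 0 were called and 5 had an unadjusted p under 0.05, with 21 above 0 and 10 below and a median of 0.047. The members of smallest p, *Dusp5* and *Dusp4*, phosphatases induced by MAP kinase signalling, ran from 801 to 938 against 643 to 831 in WT and from 616 to 841 against 581 to 701 in WT (adjusted p = 0.0992 and 0.237). Of 18 circadian genes 0 were called and 2 had an unadjusted p under 0.05, *Nr1d2* (−0.10) and *Npas2* (−0.18), with 7 above 0 and 11 below and a median of −0.025. Of 13 stress chaperones 0 were called and 1 had an unadjusted p under 0.05, with 8 above 0 and 5 below and a median of 0.011. *Hsp90ab1* and *Cryab*, the members of smallest p there, had log2 fold changes of 0.087 and 0.057. Of 84 subunits of oxidative phosphorylation 0 were called, 4 had an unadjusted p under 0.05, 21 were above 0 and 63 below, and the median was −0.032. The member of smallest p, *Atp5mpl*, a small subunit of ATP synthase, ran from 931 to 1094 against 1096 to 1165 in WT (log2 fold change −0.17, standard error 0.051, adjusted p = 0.183), followed by *Cox8b* (log2 fold change −1.60, standard error 0.52, adjusted p = 0.233). Of 81 cytosolic ribosomal proteins 1 was called, *Rps4l*, a relative of the small-subunit protein S4 annotated as a transcribed pseudogene, at 796, 696, 759, 868 and 847 against 548, 612, 553, 515 and 604 in WT (log2 fold change 0.48, standard error 0.070, adjusted p = 0.00872), kept in all 10 fits without 1 mouse, and of all members 25 were above 0 and 56 below, with a median of −0.023. Of 78 mitochondrial ribosomal proteins 0 were called, 4 had an unadjusted p under 0.05, among them *Mrpl51* (−0.15) and *Mrpl47* (0.27), 33 were above 0 and 45 below, and the median turned from −0.016 to 0.00050 with quantile normalization.

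**Figure D4:**
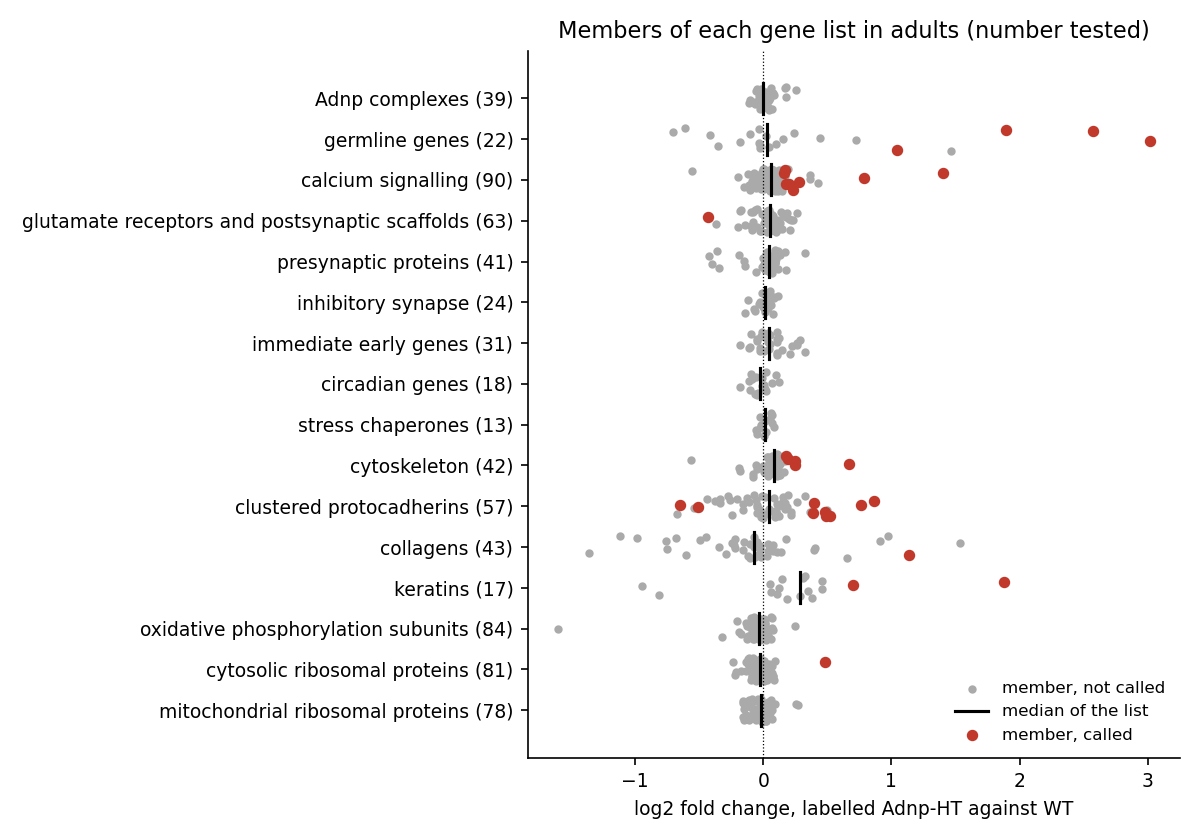
Log2 fold change, libraries labelled Adnp-HT against WT, of every tested member of 16 gene lists, with the number tested in brackets. Each grey point is a member that was not called and each red point a called one, and black bars mark list medians, which lie from −0.069 for collagens to 0.29 for keratins; points are spread vertically only to separate them.

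The labelled tissue was checked against marker genes of hippocampal and other cells. All markers of CA1, CA2 and CA3 pyramidal neurons, dentate granule neurons and interneurons averaged 10 or more across the 10 adult mice. None of the 18 marker lists held a gene at 0 in all mice. The sums of the 5 CA1 markers ran from 13474 to 15460.5 and those of the 6 dentate markers from 11293 to 14491, and both overlapped between groups. Among all genes of the 18 marker lists 1 was called, beside 0.636% of all genes tested. It was *Rgs14*, the brake on plasticity in CA2 neurons, at 3169.7, 3174, 3306, 3364 and 3569 against 2818, 2873, 2852, 2695 and 2658 in WT (log2 fold change 0.25, standard error 0.040, adjusted p = 0.0127), kept in 9 of the 10 fits without 1 mouse and lost without limma's trend. The sum of the 5 CA2 markers was 105% of WT with overlapping groups, and 3 of the 5 had a log2 fold change below 0. In tissue RNA, fewer cells of a type and less RNA per cell cannot be told apart.

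In 1 list the sums separated the groups, and in another they nearly did. The 8 microglia markers added up to 11169.8, 11356, 12451, 11337 and 11594 in the libraries labelled Adnp-HT and 10992, 11149, 10309, 10239 and 10589 in WT, 109% of WT, and did not overlap between groups (exact permutation test, p = 0.00794). No single one was called: the most abundant, *Csf1r*, ran from 3108 to 3679.6 against 2788 to 3194 in WT (log2 fold change 0.21, standard error 0.050, adjusted p = 0.0944) and *Cx3cr1* from 1331 to 1539 against 1113 to 1362 in WT (log2 fold change 0.21, standard error 0.059, adjusted p = 0.167), and the log2 fold changes of the 8 lay from −0.060 to 0.21. None of the 8 was at 0 in all mice. The part of microglia in the increase of genes known from immune cells, such as *Plcg2* and *Tnfrsf8*, was not tested. The 5 CA3 markers added up to 5873, 5225, 5614, 5872 and 5373 in the libraries labelled Adnp-HT and 4850.3, 4823, 5434, 4915 and 5095 in WT, 111% of WT, with overlap (exact permutation test, p = 0.0238). Of these 5, 3 had a log2 fold change above 0 and 2 below, from −0.54 to 0.29. The most abundant, the kainate receptor subunit *Grik4*, ran from 2127 to 2598 against 1846 to 2109 in WT, and *Bok*, a relative of BCL2, from 1994 to 2441 against 1745 to 1973 in WT, both without a call (adjusted p = 0.115 and 0.0923). No other of the 18 marker lists separated the groups. The permutation p-values of the marker sums were not adjusted for the number of lists examined. Oligodendrocyte, astrocyte and endothelial sums were 107%, 98.1% and 98.9% of WT, and that of interneurons was 101%, where the median log2 fold change turned from 0.0072 to −0.0024 with quantile normalization.

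Sums of choroid plexus and blood cell markers varied far more between mice than the sums of hippocampal markers. The 9 choroid plexus markers added up to 145561, 79120.4, 69958, 23214 and 7719 in the libraries labelled Adnp-HT and 63823, 41573, 226853, 120103 and 108560 in WT, or 58.0% of WT, and the groups overlapped (exact permutation test, p = 0.286). The highest mouse was 29.4 times the lowest. The most abundant of them, the transthyretin gene *Ttr*, ran from 6087 to 205832 over the 10 mice. All 9 had a log2 fold change below 0, with a median log2 fold change of −1.01, none was called and none was at 0 in all mice. The 5 blood cell markers added up to 6979, 7540.5, 8001, 6503 and 6602 in the libraries labelled Adnp-HT and 10581, 6486, 27454, 9436 and 7729 in WT, or 57.8% of WT, with overlapping groups (exact permutation test, p = 0.0952). WT replicate 3 was at more than 2 times any other mouse, and *Hbb-bs*, a beta globin, was the most abundant. All 5 had a log2 fold change below 0, with a median of −0.66, and 3 had an unadjusted p under 0.05 in limma, though none was called and none was at 0 in all mice. *Alas2*, which starts heme synthesis in red cells, ran from 80.4 to 103 against 111 to 410.4 in WT with no overlap (log2 fold change −0.77, standard error 0.30, adjusted p = 0.344). Markers of neighbouring brain regions overlapped too, at 81.5% of WT for striatal, 91.0% for neocortical and 96.0% for thalamic neurons. Meningeal fibroblast markers were 91.1% of WT, ependymal markers 93.4%, mural cell markers 104% and oligodendrocyte precursor markers 96.4%. The part of these neighbours in the called genes was not tested beyond the fits without 1 mouse.

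**Figure D5:**
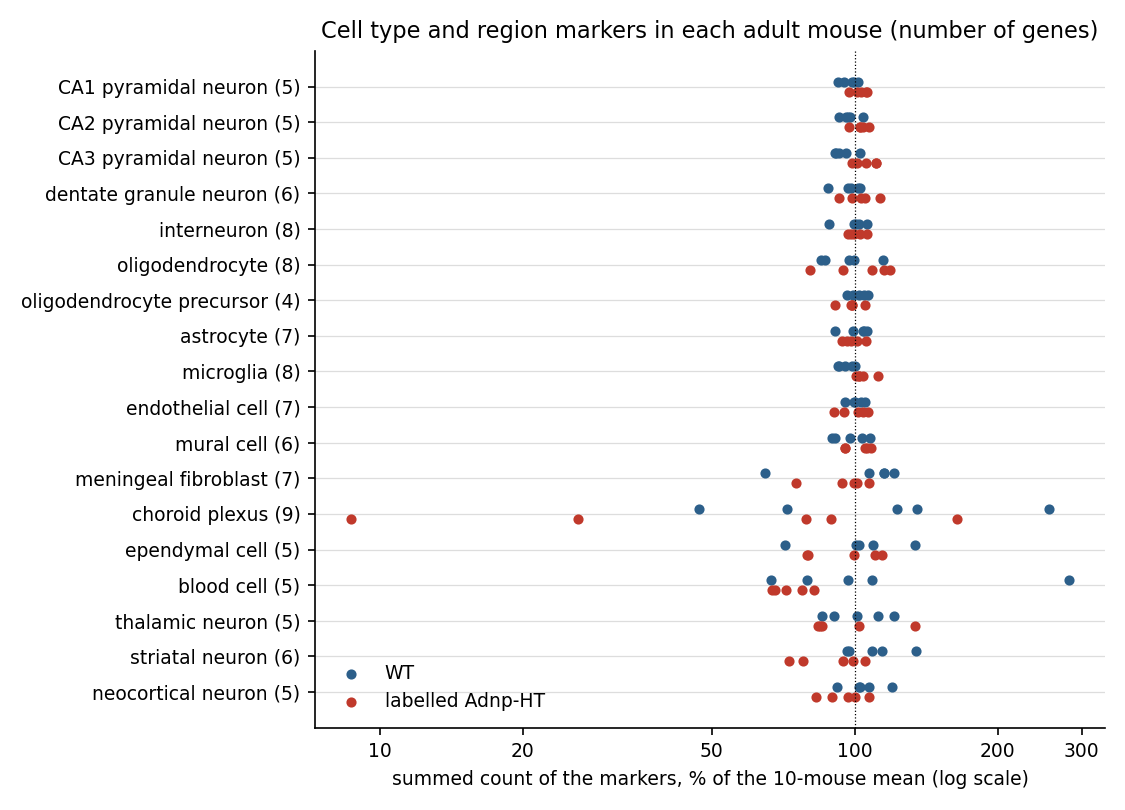
Summed normalized count of the markers of 18 cell types or regions in each adult mouse, as a percent of the mean over the 10 mice on a log scale, with the number of markers in brackets. Each point is 1 mouse, blue for WT and red for libraries labelled Adnp-HT; choroid plexus and blood markers spread widest, and the microglia sums of the 2 groups do not overlap.

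The adult difference was last set beside that of juvenile mice, a comparison of other animals. The difference between ages was tested for 17590 genes as the interaction of genotype and age in limma, and 0 genes (0%) were called, with a lowest adjusted p of 0.292, while 1139 had an unadjusted p under 0.05. Of the 110 adult calls that could be tested in juveniles, 24 (21.8%) were called there as well. The juvenile fit called 67 of 17474 genes (0.383%), so the shared genes were 36.9% of the 65 juvenile calls that were tested in adults. Among the largest adult increases, *E230025N22Rik* had a juvenile log2 fold change of 4.31 (adjusted p = 0.000101), *Prss41* 3.56 (adjusted p = 3.09e-05), *Sycp2* 1.74 (adjusted p = 0.0245) and *Pirt* 0.96 (adjusted p = 0.000467), and *Col6a2* had 1.24 (adjusted p = 1.96e-05). These 5 were thus called at both ages in separate mice. With juvenile WT means of 0.503 and 2.15, *E230025N22Rik* and *Prss41* passed the juvenile filter only through the libraries labelled Adnp-HT. Among the juvenile columns, the names of Adnp-HT replicates 3 and 5 share a code, as do those of WT replicates 4 and 5. The labels do not state what these codes mean. For juvenile Adnp-HT replicates 3 and 5 the age in the column name also differs from the age label, and the group labels were used as given. The abundant calcium genes had smaller juvenile values, 0.13 (adjusted p = 0.351) for *Hpca*, 0.062 (adjusted p = 0.802) for *Cabp7*, −0.037 (adjusted p = 0.865) for *Camk2a* and −0.11 (adjusted p = 0.685) for *Cacna1h*. Their interaction had unadjusted p-values of 0.0154, 0.0195, 0.000319 and 0.000861 in limma, and none passed adjustment, so a difference between ages was not shown for them. *Gm20716* was at −0.24 (adjusted p = 0.146) in juveniles, with an unadjusted interaction p of 0.000253, and *Dpm1* at 0.60 (adjusted p = 0.0697), with 0.573. *Grin3a*, the called decrease among glutamate receptors, was called in juveniles too, at −0.37 (adjusted p = 0.0299).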

How the data were processed

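Hippocampal RNA of 20 mice was sequenced, and the 10 adult mice are described here. The authors estimated transcripts with Salmon 1.1.0 on GRCm38, combined them per gene and deposited the signal of each gene as a normalized count, divided by a DESeq2 1.30.1 size factor. Genes averaging 10 or more were fitted here as log2(normalized count + 1) in R 4.3.3, using limma 3.58.1 with a trend of variance on level. Benjamini-Hochberg adjustment covered all genes tested, and a gene was called under 0.05. DESeq2 was not used because its raw counts were not used here. For single values an exact permutation test over mice, two-sided, was used. Positions came from GENCODE M21, which matched 19241 of 19258 genes, and promoters from RefSeq.

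Genes named were the target locus, the 10 called genes with the largest increase, the 6 with the largest decrease and the 10 with the smallest p, the called members of 16 gene lists and 18 marker lists (at most 8 a list, or the 2 with the smallest p where none was called), and 8 calcium genes of the study. Members and lists were chosen with earlier results of these data known. Alternatives were pseudocounts of 0.1 and 5, means of at least 100 or above 0, quantile and median-ratio scaling, a replicate block, no trend, all 20 samples in a single fit, and leaving out each mouse. Python 3.11.15 with matplotlib 3.10.9 drew the figures.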

Additional observations from a re-analysis of the deposited data

Results flagged for a closer look

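In 9 of 248 groups of 5 mice examined, 1 mouse lay so far from its nearest neighbour that the gap exceeded 0.71 of the group's range, where chance alone gives about 1 in 20 groups.
Among called genes, *Tnfrsf8* in Adnp-HT replicate 2 was 67.2 against 79.0 to 83.7 in the other 4, a gap of 0.714 of the range. *Pcdhgb2* in the same mouse was 279.6 against 321 to 337 in the other 4, with a gap of 0.715. For *Capn12*, Adnp-HT replicate 4 was 12.0 against 7.03 to 7.83 in the other 4, with a gap of 0.836.
In none of these 3 genes did the distant mouse reach the other group's values.

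Among markers, *Pdgfra* of oligodendrocyte precursors was 2028 against 1719 to 1787 in the other 4 in Adnp-HT replicate 1, with a gap of 0.78, and *Slc17a6* of thalamic neurons was 807 against 368 to 456 in the other 4 in Adnp-HT replicate 2, with a gap of 0.8. WT replicate 3 held the blood signal, with *Alas2* at 410.4 against 111 to 135 in the other 4 (gap 0.918), *Hbb-bs* at 9941 against 2488 to 4104 in the other 4 (gap 0.783) and the summed blood cell markers at 27454 against 6486 to 10581 in the other 4 (gap 0.805). The summed meningeal fibroblast markers were low in WT replicate 2, at 2039 against 3383 to 3805 in the other 4, with a gap of 0.761. The part of these signals in the called genes was not tested beyond leaving out each mouse.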

How the results depend on the processing

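The count of called genes was 112, and it was 39 with a replicate block, 50 without limma's trend and 188 with all 20 samples in 1 fit; the cause was not tested. The replicate numbers do not pair mice, since the correlation of same-numbered mice across genes, after removal of group means, ran from −0.0481 to 0.0784, and not every mouse correlated best with its own number. Of the 112 genes, 34 were also called with the block, 42 without trend and 99 in the 20-sample fit. Under the other alternatives, with all mice kept, the count ran from 85 (quantile normalization) to 117 (pseudocount 5).

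Without 1 adult mouse the count ran from 41 to 135. It moved by over 1.5 times without Adnp-HT replicate 1 (60), 3 (47), 4 (60) or 5 (44) and without WT replicate 1 (60), 4 (41) or 5 (48), fits that have fewer samples. Without WT replicate 3, the mouse with the highest blood and choroid plexus signal, it was 135. The share of increases stayed between 76.0% and 92.7% under every alternative run.

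The log2 fold change of *Adnp* stayed between 0.23 and 0.30, and only with all 20 samples in 1 fit, at 0.26, did it pass the threshold (adjusted p = 0.0355 from limma; range over the alternatives 0.0355 to 0.223). The count of genes whose difference changed between ages ran from 0 to 1 without 1 mouse. The 1 gene, *Gm12918*, named after its values were seen, was called without juvenile WT replicate 1 and is listed at 0 in all adult mice. Of the 46 called genes that the naming rule covers, none changed sign under any alternative in which it was tested; this was not examined for the called genes chosen outside the rule. Calls of the 46 were lost for 8 with quantile normalization (*Dpm1*, *Tmem255b*, *Camk2a*, *Ptk2b*, *Prkca*, *Cacna1h*, *Tln2* and *Tubb2a*), 26 with the block and 19 without trend (*Dpm1*, *Prss50*, *Krt79*, *Abhd11os*, *Tmem255b*, *Rec8*, *Cabp7*, *Camk2a*, *Ptk2b*, *Prkca*, *Cacna1h*, *Grin3a*, *Inf2*, *Tln2*, *Cotl1*, *Tubb2a*, *Pcdhb16*, *Pcdhgb6* and *Rgs14*). All of the latter but *Prss50* and *Pcdhgb6* were also lost with the block, which further ended calls such as those of *AC166748.2*, *Acta1*, *Capn12*, *Fyb2*, *Pcdhb12*, *Pcdhb14*, *Pcdhga9* and *Rps4l*. Depth was not known, so its limits could not be computed.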

Other observations

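Several abundant neuronal genes outside the lists were called with small increases, and they were chosen after their values were seen. *Neurod6*, a transcription factor of pyramidal neurons, ran from 5869 to 6353 against 5191 to 5428 in WT (log2 fold change 0.19, standard error 0.029, adjusted p = 0.0127). *Kcnab2*, a subunit of potassium channels, ran from 22880.2 to 23777 against 19660.3 to 21858 in WT (log2 fold change 0.20, standard error 0.031, adjusted p = 0.0117), and *Nell2*, a secreted neuronal glycoprotein, from 26961 to 28508 against 24388 to 25490.5 in WT (log2 fold change 0.15, standard error 0.026, adjusted p = 0.0229). *Ndn*, the imprinted gene necdin, ran from 3519.6 to 3919.8 against 2925 to 3284 in WT (log2 fold change 0.28, standard error 0.041, adjusted p = 0.00896). None of these 4 genes overlapped between groups, and the calls were kept in 9, 10, 4 and 10 of the 10 fits without 1 mouse.

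Decreases outside the lists, also chosen after their values were seen, included *B3gat2*, an enzyme of the HNK-1 carbohydrate, with counts from 506 to 556 against 684 to 782 in WT (log2 fold change −0.43, standard error 0.053, adjusted p = 0.00213), and *Tbp*, the TATA-binding protein, with counts from 936 to 975 against 1033 to 1146 in WT (log2 fold change −0.21, standard error 0.040, adjusted p = 0.0387). The noncoding host gene of the neuronal microRNA miR-124, *Mir124-2hg*, ran from 591 to 640.0 against 662 to 791 in WT (log2 fold change −0.27, standard error 0.053, adjusted p = 0.0463). Their groups did not overlap either, and the calls were kept in 10, 1 and 1 of the 10 fits without 1 mouse.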
